A study of Mus musculus with 4 samples.

Results

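Apolipoproteins are the proteins that coat and steer lipoprotein particles in blood and extracellular fluid. In the early mouse embryo the visceral endoderm, the epithelium on the outside of the yolk sac, makes them before the liver has formed and secretes the particles that carry lipid to the embryo. APOB is the structural scaffold on which such a particle is assembled, APOA1, APOA2, APOA4 and APOM are proteins of high-density or intestinal particles, and APOE and APOC1 are exchangeable proteins that direct or delay uptake by receptors.

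The genes described here are Apoa1, Apoa2, Apoa4, Apob, Apoc1, Apoe and Apom, chosen by name, which are 7 of the 20284 genes in the expression table. All 7 were present in it, and all 7 passed the filter on low counts in the whole culture and in endoderm-like cells. The measurements are droplet single-cell counts of unique molecular identifiers (UMIs, one per captured RNA molecule) from embryoid bodies on day 9 of culture, clumps of mouse embryonic stem cells left to differentiate. There were 2 libraries from stem cells that had received a pulse of DUX, a transcription factor of the early cleavage-stage embryo, and 2 libraries from control stem cells. Strain, clone, pulse length and dose are not given in the sources used here, and the series design calls the libraries of a group biological replicates. After filtering, DUX-pulsed replicates 1 and 2 held 2063 and 1353 cells with 65062824 and 36462169 UMIs, and control replicates 1 and 2 held 2824 and 2636 cells with 96344329 and 78167098 UMIs. The median mitochondrial share of a cell was 4.01% and 4.54% in DUX-pulsed replicates 1 and 2, against 6.22% and 6.42% in control replicates 1 and 2, and its part in the results below was not tested. In all, 8 cell barcodes occurred in more than 1 library.

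Cells were grouped into 22 clusters without using the 7 genes or other lipoprotein genes. A cluster was called endoderm-like when at least 4 of 5 core genes (Sox17, Foxa2, Foxa3, Hnf4a and Epcam) reached 20 CPM (counts scaled to a fixed library total) and no other cell type led its top 10 genes. That gave 8 endoderm-like clusters. The class held 37.9% and 27.4% of the cells of DUX-pulsed replicates 1 and 2, against 55.2% and 62.8% in control replicates 1 and 2. The 2 groups filled different clusters of it. Clusters 4 (parietal endoderm-like), 5 (hepatoblast and liver secretory-like) and 6 (unnamed, led by Ghrl, Nppb and Cdkn2b) held 763 of 781 and 342 of 371 endoderm-like cells of the DUX-pulsed libraries, against 102 of 1559 and 63 of 1656 in the controls. The remaining control cells lay in cluster 21 (visceral endoderm-like, with Bco1 and Timd2 among its leading genes) and in the unnamed clusters 7, 16, 18 and 19. In 2 further clusters, 15 and 20, the core genes were present but epiblast or primitive streak genes led, and these were kept apart: they held 0.242% and 0.591% of DUX-pulsed cells against 13.6% and 9.33% of control cells. Clusters 9 and 17, with low median depths of 1055 and 1220 UMIs per cell, were kept apart too. They held 2.52% and 15.6% of DUX-pulsed cells against 12.5% and 16.4% of control cells. The other cells below are those of the remaining 10 clusters, and the whole culture is all kept cells. Cluster 14, with Dppa5a, Sox2 and Foxe1 among its leading genes, is one of these 10, although Foxa2 and Epcam reached 41.8 and 514 CPM in it.

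In the mouse genome (build mm10, GENCODE vM21 annotation) Apoa1 lies at chr9:46228580-46230466 on the plus strand and Apoa4 at chr9:46240696-46243459 on the same strand, with 12116 bases between their starts. Apoc1 (chr7:19689481-19692660) and Apoe (chr7:19696109-19699188) are neighbours on the minus strand, with starts 6528 bases apart. Apoa2 lies at chr1:171225054-171226379 on the plus strand, Apob at chr12:7977648-8016835 on the plus strand and Apom at chr17:35128997-35132050 on the minus strand. The antisense gene Gm10680, also in the table, overlaps the 3′ end of Apoa4. Use of strand in the counting is not stated in the sources used here, and the part of Gm10680 reads in the Apoa4 counts was not tested. Genes within 10 Mb of each member had a median log2 fold change in the whole culture between -0.11 and 0.09, and smaller blocks were not tested.

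The promoters of Apoa2 and Apoe are shown because these genes were spread differently: most Apoa2 UMIs lay in few endoderm-like cells, and Apoe was found in nearly all of them and in other cell types. Each line gives the 250 bases upstream of the start site, 5′ to 3′ (RefSeq, GRCm38.p6), Apoa2 from chr1:171224804-171225053 on the plus strand and Apoe from chr7:19699189-19699438 on the minus strand, with capitals marking the motifs found.
Apoa2: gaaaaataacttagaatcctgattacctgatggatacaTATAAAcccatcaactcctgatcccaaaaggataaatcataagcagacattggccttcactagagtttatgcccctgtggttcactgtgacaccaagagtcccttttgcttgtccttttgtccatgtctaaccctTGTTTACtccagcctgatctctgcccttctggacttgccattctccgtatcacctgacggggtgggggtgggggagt
Apoe: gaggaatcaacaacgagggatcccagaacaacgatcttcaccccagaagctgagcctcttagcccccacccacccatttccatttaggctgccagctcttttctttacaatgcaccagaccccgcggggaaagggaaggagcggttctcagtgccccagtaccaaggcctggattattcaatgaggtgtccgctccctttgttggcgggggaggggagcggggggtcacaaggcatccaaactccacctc
Both strands were searched for 6 motifs: the HNF4-type letters TGNACTTTG, the HNF1-type motif, the FOXA-type letters, a GATA-type motif, the GC box and the TATA box. The Apoa2 window held the FOXA-type letters TGTTTAC from -77 to -71, which occur in 3.17% of 32851 mouse promoter windows of the same length. It also held the TATA box, searched as TATAAA, from -212 to -207, which occurs in 12.4% of windows. The GATA-type motif was searched as AGATAA and occurs in 9.99% of windows. The GC box was searched as GGGCGG and occurs in 32.7%, and the HNF1-type motif occurs in 0.371%. The Apoe window held none of the 6. Of the other members in the RefSeq table, Apob held the TATA box from -60 to -55 and Apoa4 held the HNF4-type letters from -182 to -174, which 1.19% of windows contain. The Apoa1 and Apom windows held none. For Apoa1, Apoa4, Apob and Apom the RefSeq start site lies inside the GENCODE gene given above, so part of each window does too. Nearly all of the Apom window (chr17:35131802-35132051) lies within the gene. A match is a match of letters only, and Apoc1 was not in the table.

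Across the clusters with endoderm core genes, 5 of the 7 members were highest in the visceral endoderm-like cluster 21 when all 4 libraries were summed. These levels are CPM of such sums unless a library is named, and they move with which group fills a cluster. They are a description, since the clusters were made from the same cells. Apob reached 2822 CPM there, against 1637 in cluster 16, 1386 in cluster 15 and between 212 and 827 in the other 7 clusters. Apoa1, the main protein of high-density lipoprotein, reached 2272 CPM in cluster 21 and 1384 in cluster 18, an Anpep- and Tm4sf4-led cluster, and Apom, the carrier of sphingosine-1-phosphate, reached 3233 CPM in cluster 21. Apoe stood at 17155 CPM in cluster 21 and was the most evenly spread, with at least 5785 CPM in all 10 clusters.

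Cluster 21 held 1 and 2 DUX-pulsed cells and 223 and 149 control cells. The 2 DUX-pulsed cells of replicate 2 had 2854 CPM of Apob, from 132441 UMIs in all, against 2245 and 3758 CPM in control replicates 1 and 2. They had 2763 CPM of Apom, against 3455 and 2880 CPM in the controls. The single cell of DUX-pulsed replicate 1 had 3955 CPM of Apob and 3154 CPM of Apom. Apoa2 in cluster 21 was at 517 and 581 CPM in these DUX-pulsed cells, from 20 and 77 UMIs, against 330 and 179 CPM in the controls. With 1 and 2 cells, no comparison was made.

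**Figure D1:**
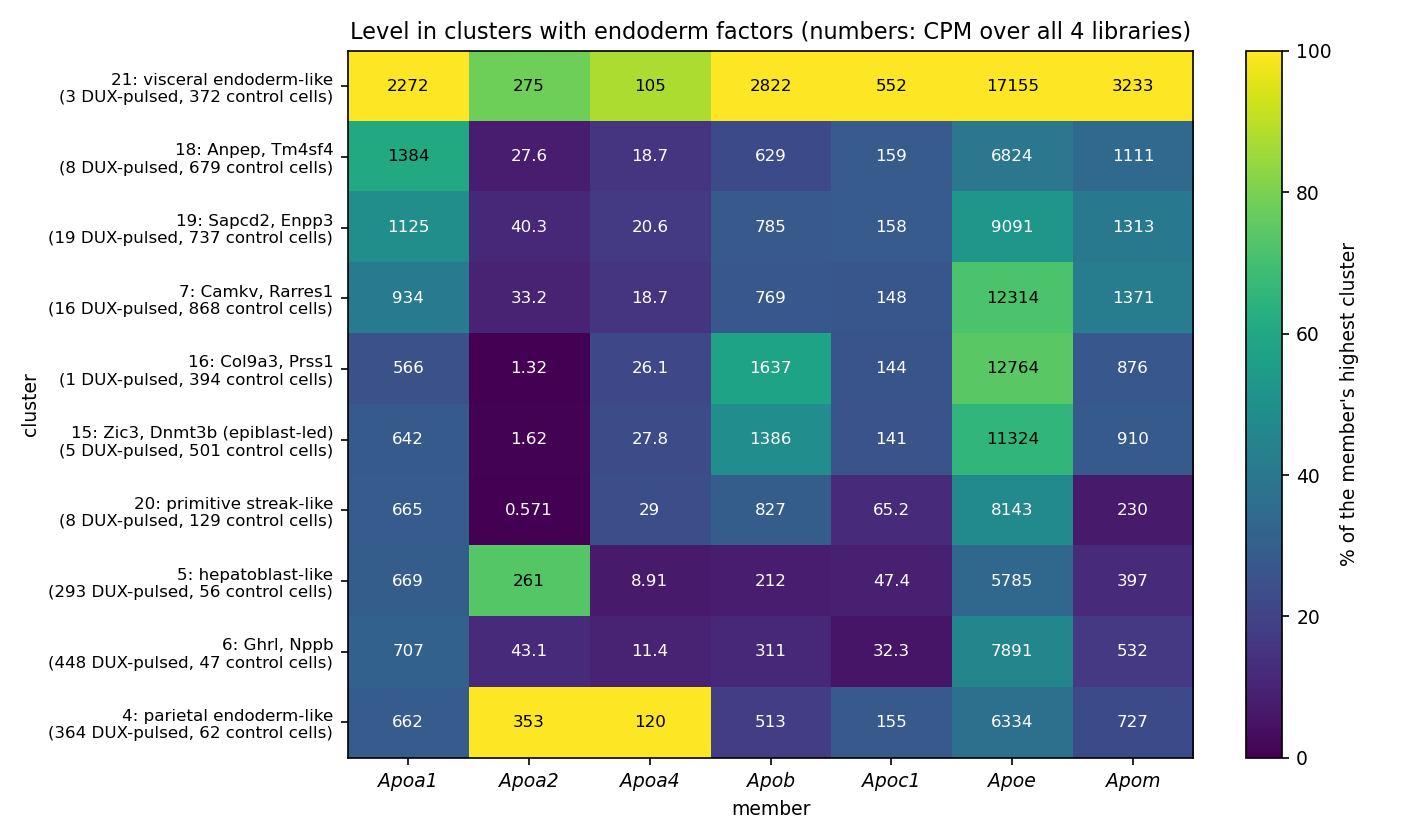
Level of each member in the 10 clusters with endoderm core genes. Numbers are CPM of counts summed over all 4 libraries, colours give the percentage of the member's own highest cluster, and cell numbers of the 2 groups stand beside each cluster; Apoa2 drops to 1.32, 1.62 and 0.571 CPM in clusters 16, 15 and 20, where Apob is at 1637, 1386 and 827 CPM.

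Apoa2 had a different spread. Summed over libraries it was at 353 CPM in the parietal endoderm-like cluster 4, 275 in cluster 21 and 261 in cluster 5, the hepatoblast and liver secretory-like cluster. Most cells of cluster 4 were DUX-pulsed, and within both control libraries Apoa2 was higher in cluster 21 than in cluster 4. Apoa2 was also higher in cluster 21 within the DUX-pulsed libraries, but from 1 and 2 cells of that cluster. In clusters 16, 15 and 20 it was at 1.32, 1.62 and 0.571 CPM, like the 0.240 to 1.71 CPM of the other cells. Apob, Apoe and Apoa1 in those clusters stayed between 566 and 12764 CPM. Both control libraries showed this: cluster 15 had 20 and 24 Apoa2 UMIs against 19450 and 18914 Apob UMIs in control replicates 1 and 2. Apom was also low in the primitive streak-like cluster 20, at 230 CPM against 910 in cluster 15.

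Apoa4, an apolipoprotein of the intestine, was at 120 CPM in cluster 4, at 105 in cluster 21 and between 8.91 and 29.0 in the other 8 clusters. It too was higher in cluster 21 than in cluster 4 in control replicates 1 and 2, with 110 against 4.14 and 95.7 against 9.15 CPM. In DUX-pulsed replicates 1 and 2 the values were 207 against 144 and 166 against 61.9 CPM. Those of cluster 21 rest on 8 and 22 UMIs from 1 and 2 cells. The 95% Poisson interval of the first, 89.3 to 408 CPM, includes 144. Apoc1, which slows lipoprotein uptake, was at 552 CPM in cluster 21, between 65.2 and 159 in 7 clusters, and at 47.4 and 32.3 in clusters 5 and 6. The last 2 are mostly DUX-pulsed cells, and control cells of cluster 6 were at 115 and 137 CPM.

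Within the endoderm-like class the members differed in how many cells carried them. For Apoa2, 50% of all UMIs lay in 20 of 781 and 5 of 371 cells in the DUX-pulsed libraries, against 24 of 1559 and 36 of 1656 cells in the controls. For Apoe the cells holding 50% made up 19.2% and 23.5% of the class in DUX-pulsed libraries against 21.2% and 22.2% in controls. With each cell thinned to 5000 UMIs, 19.2% and 15.6% of DUX-pulsed cells had an Apoa2 UMI against 13.5% and 11.4% of control cells, while Apoe was found in at least 98.5% of cells of each library. Sums of Apoa2 therefore rest on few cells, and its fold changes below carry that limit.

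The parietal endoderm-like cluster 4 held 317 and 47 DUX-pulsed cells and 54 and 8 control cells. Apoa2 stood at 431 and 122 CPM in the DUX-pulsed cells of cluster 4, against 5.98 CPM in control replicate 1 and 0 of 109233 UMIs in control replicate 2. Apoa1 stood at 796 and 319 CPM there, against 34.5 and 9.15 CPM in the controls. Apom stood at 851 and 561 CPM, against 70.3 and 64.1 CPM, and Apoe at 6948 and 4854 CPM, against 3483 and 2014 CPM. All 7 members were higher in both DUX-pulsed libraries than in both controls in this cluster, but control replicate 2 had 8 cells, so no test was made. The values of DUX-pulsed replicate 2 also rest on few cells. There, 50% of the Apoa1 UMIs and 50% of the Apob UMIs lay in 1 of 47 cells. For Apoa2, Apoa4 and Apom, 50% lay in 2 cells. Median depth there was 44353 and 2764 UMIs per cell in DUX-pulsed libraries and 40233.5 and 3197 in controls.

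Cells of cluster 4 were not alike. In DUX-pulsed replicate 1, the 56 cells with at least 10 Apoa2 UMIs had 2541 CPM of Apoa1, 445 of Apoa4, 1834 of Apob and 2288 of Apom. The 207 cells with no Apoa2 UMI had 39.1 CPM of Apoa1, 14.3 of Apoa4, 33.3 of Apob and 124 of Apom. The parietal endoderm list (18 genes, among them Sparc, Lamb1 and Col4a1 of the basement membrane) ran the other way, with a summed level of 6565 CPM in the first cells and 25149 in the second. DUX-pulsed replicate 2 had 5 cells of the first kind, and the controls had none. The bands are ranges of 1 count, not cell types, and their median depths differed, at 68367.5 and 31208 UMIs per cell in replicate 1.

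**Figure D2:**
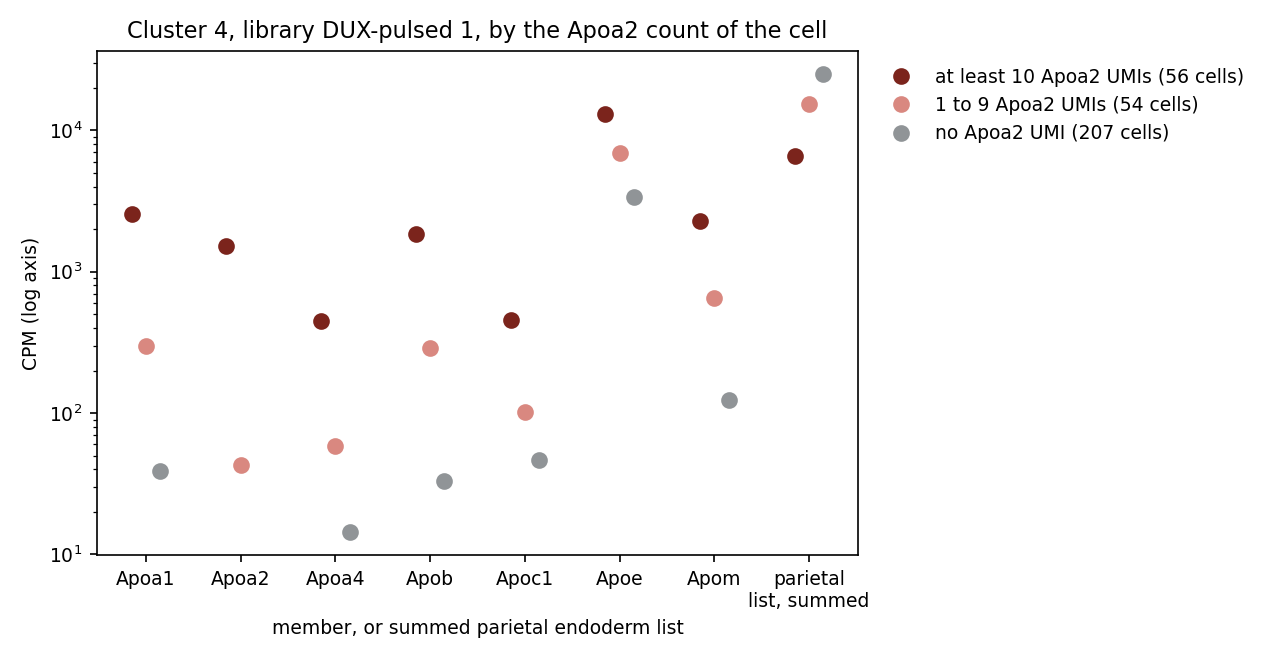
Levels of the 7 members and the summed parietal endoderm list in cluster 4 of DUX-pulsed replicate 1, in CPM on a log axis, for cells with at least 10, with 1 to 9 and with no Apoa2 UMI (56, 54 and 207 cells). Each point is a level of counts summed over the cells, and the level of 0 for Apoa2 in the last band is not drawn; the members are highest, and the parietal list lowest at 6565 CPM, in the first band.

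The first comparison asked what level of each transcript the whole culture held. Of the 7 members, 5 were lower in DUX-pulsed cultures and none was higher, where 11.1% of 16140 genes tested were called lower and 15.6% higher. Values are CPM scaled by the trimmed mean of M-values (TMM), and a gene was called at an adjusted p under 0.05 in edgeR's quasi-likelihood test with Benjamini-Hochberg adjustment over all genes. In such sums, fewer cells of a type and less RNA per cell cannot be told apart.

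Apob had 194 and 126 CPM in DUX-pulsed cultures, against 890 and 1217 CPM in control cultures. The groups lay far apart. On the log2 scale Apob fell by 2.72, with an SE of 0.28 (adjusted p = 0.00284). Apom had 317 and 195 CPM in DUX-pulsed cultures and 1204 and 1114 CPM in controls, and fell by 2.18 (SE 0.26, adjusted p = 0.00395). Apoa1 had 357 and 215 CPM, against 905 and 1000 CPM in controls, and fell by 1.74 (SE 0.26, adjusted p = 0.00747). Both are high-density lipoprotein components and their groups did not overlap.

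Apoe, the ligand of the low-density lipoprotein receptor family, had 3993 and 2554 CPM in DUX-pulsed cultures and 10673 and 7986 CPM in controls. It fell by 1.51 (SE 0.28, adjusted p = 0.0123). Its neighbour Apoc1 had 54.9 and 15.8 CPM, against 194 and 153 CPM in controls, and fell by 2.29 (SE 0.55, adjusted p = 0.0285). In both genes DUX-pulsed replicate 1 stood above replicate 2, most so in Apoc1. The fall of these 5 genes was called under all 11 alternatives run on the whole culture.

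The remaining pair did not pass the test. Apoa2 had 147 and 40.3 CPM in DUX-pulsed cultures and 59.2 and 36.5 CPM in controls, a difference of 0.97 on the log2 scale (SE 0.58, adjusted p = 0.259). Apoa4 had 34.8 and 7.13 CPM, against 31.1 and 25.5 CPM in controls, a change of -0.42 (SE 0.64, adjusted p = 0.657). For both, DUX-pulsed replicate 1 decided the value. Without it Apoa2 stood at -0.23 and Apoa4 at -1.97 (adjusted p = 0.000105), and without DUX-pulsed replicate 2 they stood at 1.62 (adjusted p = 0.00208) and 0.31. Replicate 1 also held 317 of the 364 DUX-pulsed cells of cluster 4.

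**Figure D3:**
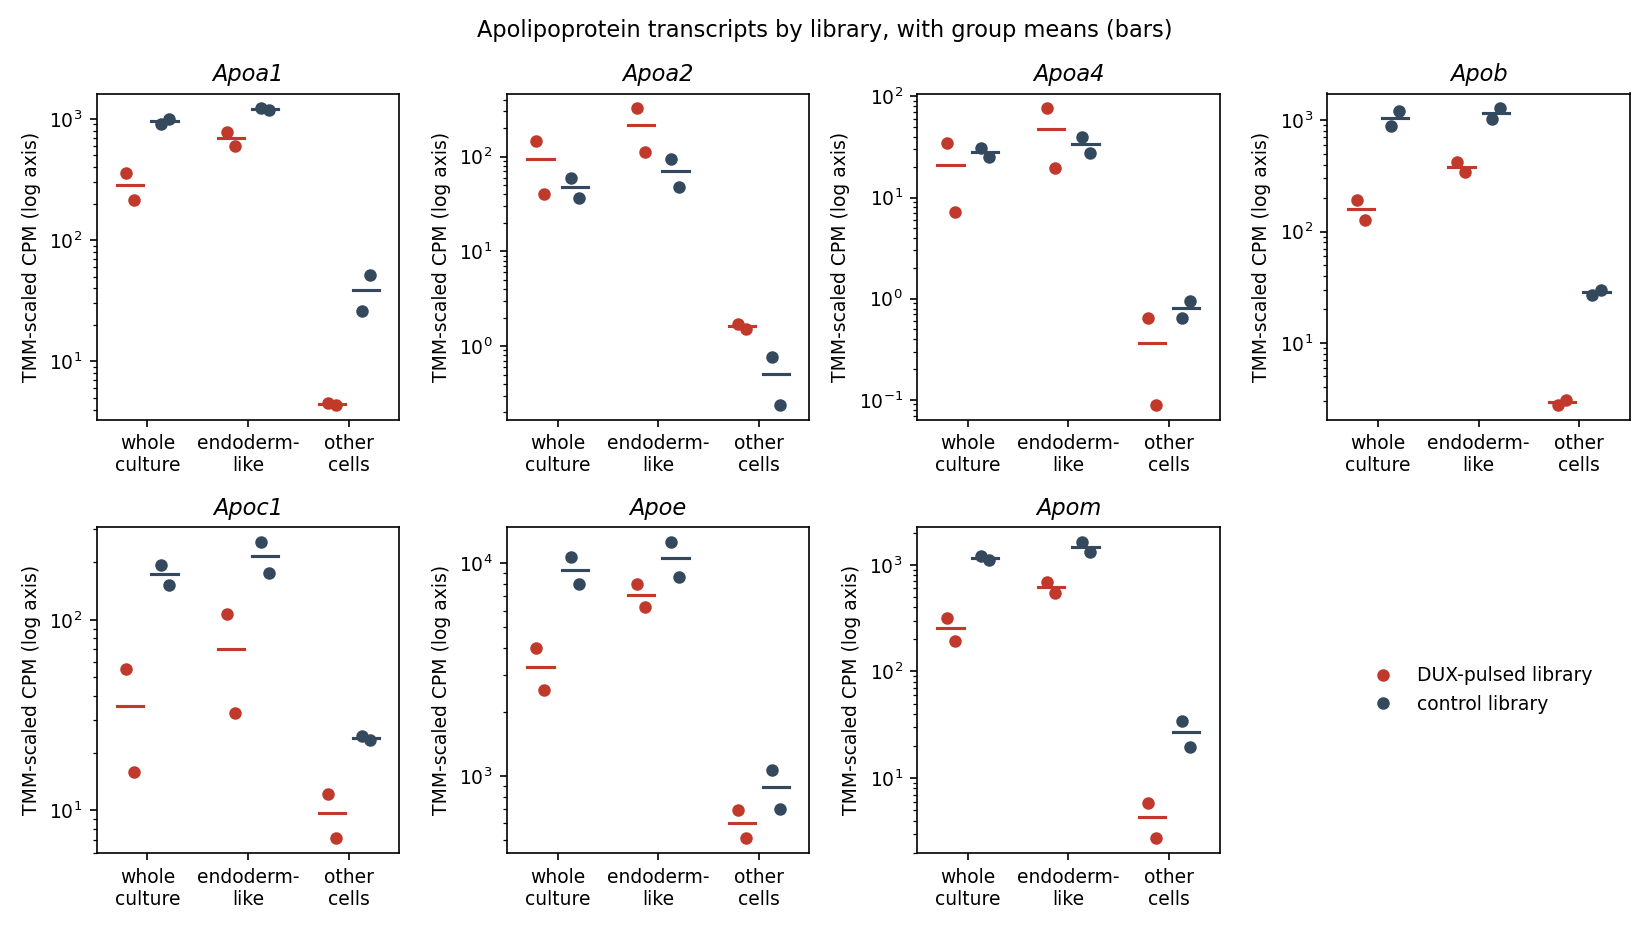
TMM-scaled CPM of each member per library on log axes, in the whole culture, in endoderm-like cells and in cells of the other classes. Points are libraries, DUX-pulsed left of control, and bars are means of 2; Apob in endoderm-like cells is at 423 and 344 CPM against 1035 and 1280, and Apoa2 there is at 324 and 111 CPM against 94.4 and 48.3.

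The second comparison summed over endoderm-like cells alone. There, 2 members were lower, Apob and Apom, and none was higher, where 4.09% of 14525 genes were called lower and 4.51% higher. Apob had 423 and 344 CPM in DUX-pulsed endoderm-like cells, against 1035 and 1280 CPM in control ones, and fell by 1.59 (SE 0.19, adjusted p = 0.0169). Apom had 694 and 550 CPM, against 1644 and 1317 CPM in controls, and fell by 1.25 (SE 0.20, adjusted p = 0.0265). These sums set clusters 4, 5 and 6 of the DUX-pulsed libraries against clusters 7, 16, 18, 19 and 21 of the controls.

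The other 5 members did not pass in this class. Apoa1 had 786 and 602 CPM in DUX-pulsed cells and 1223 and 1178 CPM in control cells, with no overlap, a change of -0.79 (SE 0.18, adjusted p = 0.0552). Apoe had 7975 and 6245 CPM, against 12634 and 8639 CPM, a change of -0.58 (adjusted p = 0.204). Apoc1 had 108 and 32.3 CPM, against 257 and 176 CPM, a change of -1.62 (SE 0.55, adjusted p = 0.138). The values of these 3 genes were lower in both DUX-pulsed libraries than in both controls.

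Apoa2 went the other way in endoderm-like cells, with 324 and 111 CPM in DUX-pulsed cells and 94.4 and 48.3 CPM in control cells, a change of 1.61 (SE 0.56, adjusted p = 0.145). Apoa4 overlapped, with 76.4 and 19.7 CPM, against 39.9 and 27.7 CPM (0.52, adjusted p = 0.647). With cluster 4 left out, an alternative chosen after seeing the data, Apoa1, Apoa4, Apob, Apoc1 and Apom were all called lower and Apoa2 was called higher. The values were then -0.81, -1.40, -1.98, -2.69, -1.48 and 1.16 on the log2 scale, with adjusted p between 0.000134 and 0.0331, in a fit that called 2104 genes higher and 2177 lower. Without control replicate 1, Apom was not called (adjusted p = 0.111), and without control replicate 2 neither Apob (0.0639) nor Apom (0.0660) was, in fits that called 42 and 46 or 28 and 43 genes higher and lower in all.

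Endoderm-like cells of the 2 groups also differed in markers beyond the 7 genes. The visceral endoderm list (25 genes, with Ttr, Afp and Amn) summed to 18157 and 20291 CPM in DUX-pulsed cells against 25022 and 24636 CPM in controls. The parietal list summed to 9392 and 4068 CPM against 5312 and 4818 CPM. The gut list was at 8326 and 8717 CPM against 13795 and 14032 CPM, and the hepatoblast list at 14766 and 18684 CPM against 21146 and 20730 CPM. The mesenchyme list was at 696 and 654 CPM against 324 and 326 CPM, the endothelium list at 343 and 274 CPM against 676 and 763 CPM, and the pluripotent list at 384 and 212 CPM against 551 and 548 CPM. The groups overlapped only for the parietal list among these 7. The part of these in the values above was not tested.

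Of the endoderm-like clusters, 5 and 6 had at least 20 cells in every library and allowed a comparison within a cluster. In the hepatoblast and liver secretory-like cluster 5 (187 and 106 DUX-pulsed cells, 26 and 30 control cells) 3 members were higher and none lower, where 4.73% of 10724 genes were called higher and 3.44% lower. Apoe had 7492 and 5322 CPM in DUX-pulsed cells, against 3726 and 2135 CPM in control cells (log2 fold change 1.13, SE 0.25, adjusted p = 0.0123). Apob had 205 and 299 CPM, against 150 and 98.0 CPM (1.03, SE 0.25, adjusted p = 0.0195). Apoa2 had 370 and 194 CPM, against 171 and 70.4 CPM (1.23, SE 0.35, adjusted p = 0.0410).

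Apob and Apoe thus rose in cluster 5 and fell in the whole culture. Apoe was called there under all 10 alternatives that gave a value. The other Leiden resolutions, clustering with the members and lists, the stricter cell filter and removal of top doublet scores gave none for this cluster. Apob was not called without DUX-pulsed replicate 2 (adjusted p = 0.0656) or control replicate 2 (0.154). Apoa2 was not called without DUX-pulsed replicate 1 (0.0696) or control replicate 2 (0.194), with all deposited cells (0.443) or by DESeq2 (0.550). The other 4 members did not pass: Apoa1 was at 734 and 707 CPM against 911 and 296, Apom at 421 and 425 against 557 and 233, Apoc1 at 59.7 and 17.8 against 99.6 and 72.2, and Apoa4 at 9.75 and 11.6 against 5.80 and 0.891 CPM. In cluster 5 the visceral endoderm list was also higher, at 18396 and 18354 CPM in DUX-pulsed cells against 15512 and 14675 CPM in control cells, and so was the hepatoblast list, at 18879 and 18057 CPM against 16940 and 15711 CPM. The endothelium list was at 192 and 180 CPM against 463 and 506 CPM. Their part was not tested.

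In cluster 6 (259 and 189 DUX-pulsed cells, 22 and 25 control cells) 1 member was higher and 2 were lower, where 3.63% of 10692 genes were called higher and 4.2% lower. Apoc1 had 25.8 and 21.4 CPM in DUX-pulsed cells, against 116 and 129 CPM in control cells, and fell by 2.37 (SE 0.22, adjusted p = 1.80e-05). It was called under all 12 alternatives that gave a value. In the controls 50% of the Apoc1 UMIs of this cluster lay in 3 of 22 and 3 of 25 cells. In the DUX-pulsed libraries they lay in 9 of 259 and 7 of 189 cells. Apoa2 had 61.0 and 33.1 CPM, against 10.5 and 9.78 CPM (2.22, SE 0.43, adjusted p = 0.00671), where each control library held 7 UMIs. That call was lost with cells thinned to 5000 UMIs (adjusted p = 0.0812), and without either DUX-pulsed library Apoa2 was under the count filter.

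Apoa4 had 9.18 and 11.9 CPM in DUX-pulsed cells of cluster 6, against 24.1 and 25.2 CPM in control cells (-1.23, SE 0.34, adjusted p = 0.0395), from 16 and 18 control UMIs. This call was lost by DESeq2 (0.144) and without any 1 of the 4 libraries (0.0506 to 0.412). Apob (281 and 298 CPM against 289 and 940), Apoa1 (798 and 588 against 537 and 1432), Apom (601 and 437 against 530 and 1019) and Apoe (9669 and 6644 against 6289 and 7640) overlapped between the groups and did not pass. The parietal list was at 2675 and 2621 CPM in the DUX-pulsed cells of cluster 6, against 5828 and 4670 CPM in the control cells. The gut list was at 11134 and 9404 CPM against 16443 and 17219 CPM, the endothelium list at 245 and 287 CPM against 710 and 773 CPM, and the pluripotent list at 160 and 157 CPM against 307 and 358 CPM. Their part was not tested.

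The change in cluster 5 was set against that in cluster 6 with an interaction term, chosen after seeing the data, in which 0.777% of 11715 genes were called higher and 0.307% lower and no member was called. The largest difference was that of Apoa4, at 2.95 (SE 0.62, adjusted p = 0.0608), whose 4 libraries were ordered in opposite ways in the clusters. Its control values rest on 6 and 1 UMIs in cluster 5. In cluster 6 they rest on 16 and 18 UMIs, of which 50% lay in 1 of 22 and 1 of 25 cells. Apoc1 values were lower in DUX-pulsed libraries in both clusters, while Apoe, 6528 bases away, was higher in cluster 5 and overlapped in cluster 6. The few DUX-pulsed cells of 2 control-rich clusters are given as values with no test. In cluster 19, Apoc1 was at 13.0 CPM in 19 DUX-pulsed cells and at 162 CPM in 737 control cells. In cluster 7 it was at 46.2 CPM in 16 DUX-pulsed cells and at 150 CPM in 868 control cells, where Apoe was at 12554 and 12309 CPM.

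**Figure D4:**
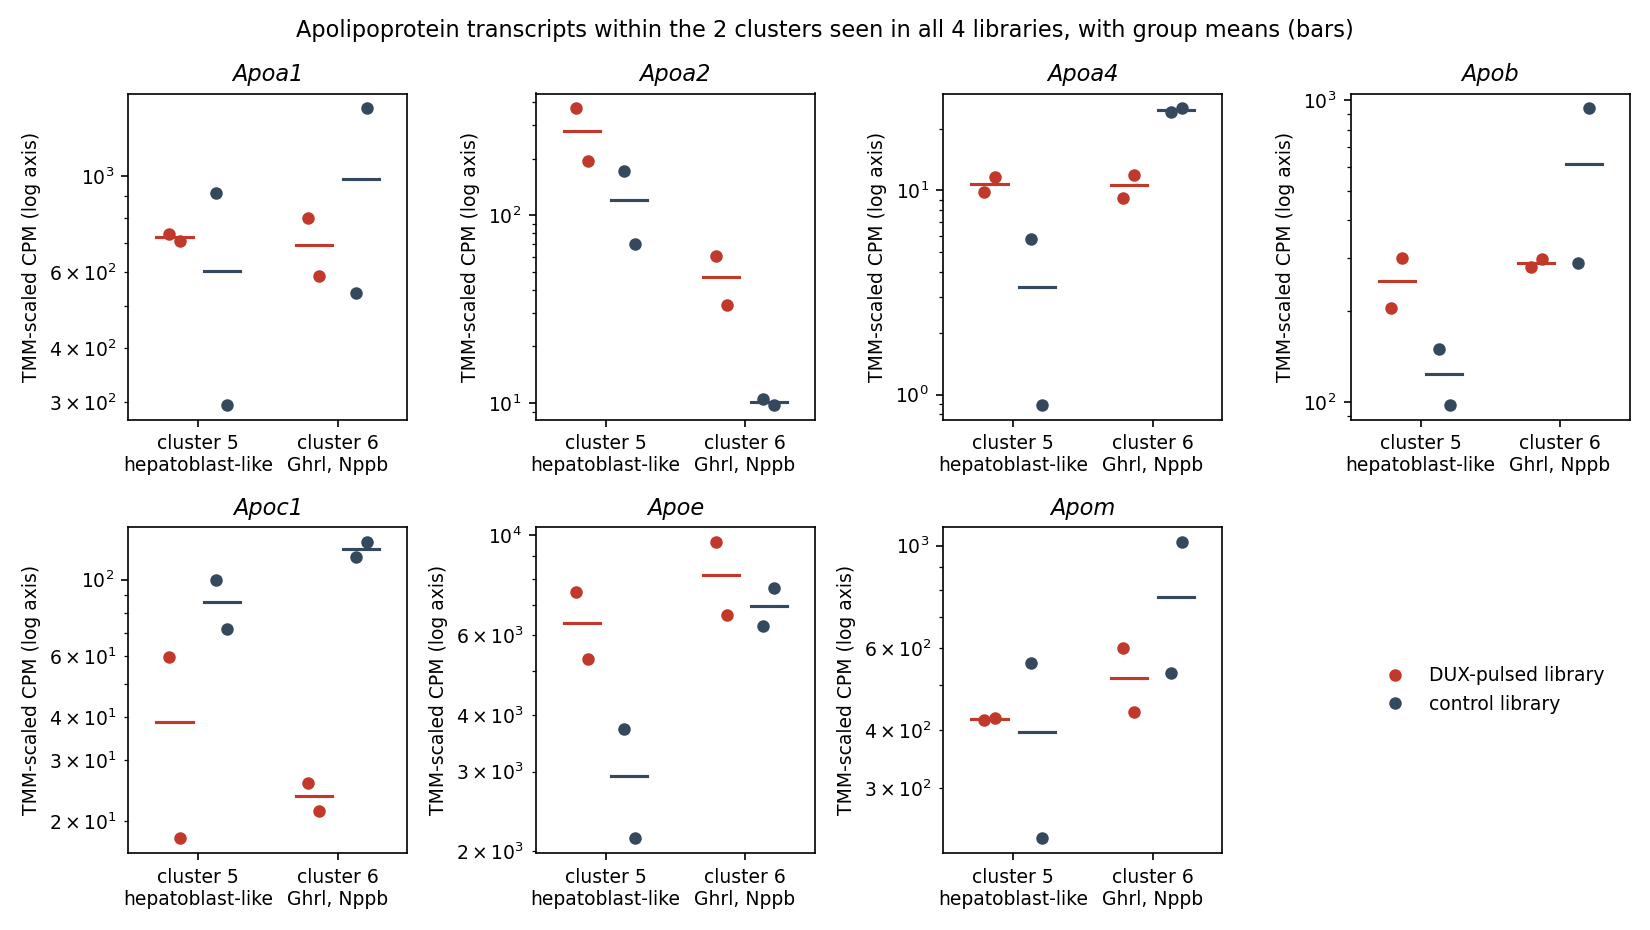
TMM-scaled CPM of each member per library on log axes, within cluster 5 (hepatoblast and liver secretory-like) and cluster 6 (led by Ghrl and Nppb). Points are libraries, DUX-pulsed left of control, and bars are means of 2; Apoc1 in cluster 6 has 25.8 and 21.4 CPM against 116 and 129, and the groups do not overlap for Apoe, Apob and Apoa2 in cluster 5.

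In the other cells the 7 genes fell into 2 patterns. Apoa1, Apoa2, Apoa4, Apob and Apom were at 0.461% to 1.39% of their own endoderm-like level in the other cells of DUX-pulsed libraries, and at 0.491% to 4.31% in those of controls. The endoderm secretory genes Ttr, Rbp4 and Spink1 gave 0.775% to 1.49% and 2.02% to 3.08%. Most values of these members lay in or below that range, with Apoa1 (4.31%) and Apoa4 (3.42%) above it in control replicate 2. The part of free RNA picked up by droplets in any of these values was not tested. Apoe stood apart, at 8.68% and 8.31% of its endoderm-like level in DUX-pulsed libraries and 8.45% and 8.01% in controls. With cells thinned to 5000 UMIs, an Apoe UMI was found in 72.0% and 72.7% of the other DUX-pulsed cells and in 83.9% and 80.9% of the other control cells, against 1.80% and 2.11% and 5.65% and 7.91% for Apoa1.

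The Apoe level also varied by cell type more widely than that of the secretory genes. In DUX-pulsed replicates 1 and 2 it was at 1598 and 874 CPM in endothelium-like cells, which is 21.2% and 14.4% of the endoderm-like level, and in controls at 2671 and 2219 CPM, 21.1% and 23.7%. It was at 12.0% and 11.2% of it in the DUX-pulsed cells of the myeloid-like cluster 12, at 11.1% and 12.4% in the unnamed, Ptn-led cluster 0, and at 1.11% and 0.779% in trophoblast-like cells. Across the same 10 clusters of the DUX-pulsed libraries Ttr ranged from 0.156% to 1.97% in a single library.

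Apoc1 had a different distribution again. In the trophoblast-like cluster 10, which held 38 and 16 DUX-pulsed cells and 1 control cell, it was at 99.9 CPM (95% Poisson interval 86.7 to 115) and 96.6 CPM (72.3 to 126). That was 98.2% and 307% of its endoderm-like level in the same library, while Apoe there was at 83.8 and 47.4 CPM. An Apoc1 UMI was present in 63.2% and 56.3% of these cells, at median depths of 52025 and 29871.5 UMIs. In cardiomyocyte-like cluster 1 the shares were 3.40% and 2.82% of DUX-pulsed cells, at median depths of 20022 and 24211 UMIs. They were 22.6% and 21.3% of control cells, at 21620 and 23540 UMIs.

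The myeloid-like cluster 12, led by the macrophage genes C1qb, Tyrobp and Cx3cr1, had 38.6 and 51.2 CPM of Apoc1 in 62 and 15 DUX-pulsed cells. Its UMIs lay in 17.7% and 13.3% of the cells. Apoe in this cluster was at 905 and 679 CPM. Endothelium-like cells, the highest in Apoe, had 5 and 3 Apoc1 UMIs in DUX-pulsed libraries (2.31 and 3.06 CPM) and 50 and 17 in controls (36.6 and 64.9 CPM). Intervals cover counting error only.

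**Figure D5:**
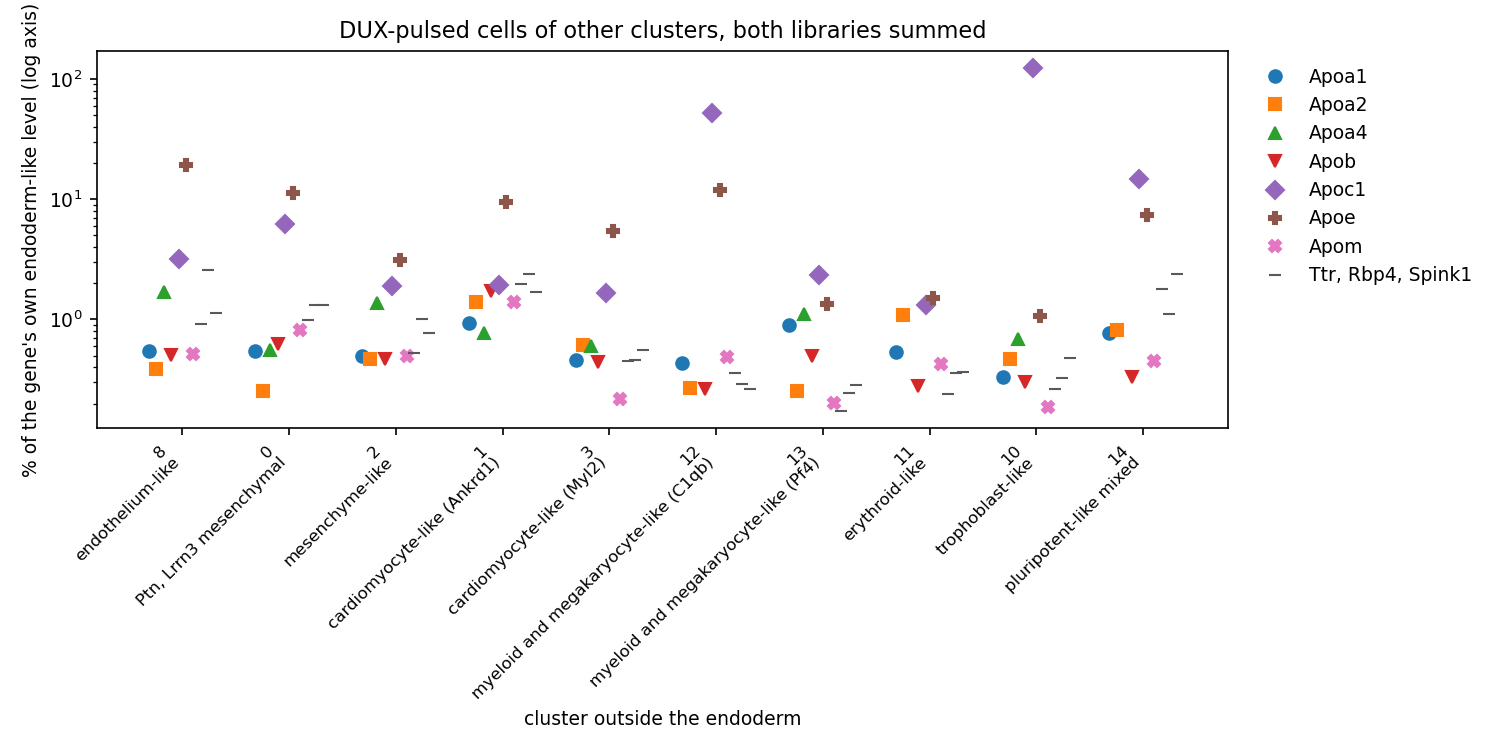
Level in DUX-pulsed cells of the 10 clusters of other cells, both libraries summed, as a percentage of each gene's own endoderm-like level on a log axis. Grey dashes are the endoderm secretory genes Ttr, Rbp4 and Spink1, and genes at 0 are not drawn; Apoe lies above the dashes in all 10 clusters and Apoc1 reaches the endoderm-like level in trophoblast-like cluster 10.

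Between the groups, 4 members were lower in the other cells of DUX-pulsed libraries, where 2.22% of 14255 genes were called lower and 4.08% higher. No member was called higher. Apob had 2.77 and 3.08 CPM in DUX-pulsed cells, against 27.2 and 29.8 CPM in control cells (-3.28, SE 0.21, adjusted p = 0.00907). Apoa1 had 4.51 and 4.37 CPM, against 25.9 and 51.4 CPM (-3.11, SE 0.35, adjusted p = 0.0197). Apom had 5.88 and 2.72 CPM, against 34.4 and 19.6 CPM (-2.64, SE 0.43, adjusted p = 0.0268). These are low levels, and that of Apoa1 in control replicate 2 lay above the range of the secretory genes. Control levels were uneven. With cells thinned as above, control replicate 1 averaged 0.475 Apob UMIs per cell in cluster 8, against 0.0806 in the class. There, 10% of 40 cells had one. In control replicate 2, cluster 14 averaged 0.407 against 0.133 for Apob and 0.556 against 0.140 for Apoa1. UMIs of these genes lay in 3.70% and 11.1% of its 27 cells. In the class, 1.35% and 1.13% of DUX-pulsed cells had an Apob UMI, against 4.44% and 6.83% of control cells. The part of clusters 8 and 14 was not tested.

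Apoc1 had 12.2 and 7.14 CPM in DUX-pulsed cells, against 24.5 and 23.5 CPM in control cells (-1.30, SE 0.28, adjusted p = 0.0480), and was not called without DUX-pulsed replicate 2 (adjusted p = 0.142). Apoe had 693 and 511 CPM, against 1071 and 701 CPM, and was not called (-0.56, adjusted p = 0.287). Apoa2 (1.71 and 1.52 CPM against 0.772 and 0.240) and Apoa4 (0.640 and 0.0893 against 0.643 and 0.960) were not called either. In the other cells the visceral endoderm list was at 673 and 722 CPM in DUX-pulsed libraries against 1010 and 1328 CPM in controls, and endoderm-like cells supplied 45.9% and 35.8% of all UMIs against 61.3% and 72.5%. The part of endoderm RNA in these differences was not tested. With at most 5% mitochondrial counts and at least 1000 genes per cell, none of the 4 was called (adjusted p 0.0577 to 0.392). Without the top 5% of doublet scores Apoa1 (adjusted p = 0.0525) and Apoc1 (0.0605) were not called.

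The group difference itself was compared between the classes with an interaction term, in which 0.77% of 15852 genes had a higher and 0.946% a lower log2 fold change in endoderm-like cells. There, 2 members, Apoa1 and Apob, were called higher and none lower. Apob's fold change was 1.68 higher in endoderm-like than in other cells (SE 0.18, adjusted p = 0.0227), and that of Apoa1 was 2.22 higher (SE 0.35, adjusted p = 0.0437). For both genes the fold change was negative in either class, so the higher value is the smaller fall. Apom was at 1.38 (adjusted p = 0.0615) and Apoe at -0.05 (SE 0.08, adjusted p = 0.789). Under the stricter cell filter both calls were lost, with 0.03 for Apob (adjusted p = 0.974) and 0.65 for Apoa1 (0.527). Without the top 5% of doublet scores they were lost too, at 2.45 (0.146) and 2.07 (0.225).

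The genes most like each member were sought across all 22 clusters as a description, by Pearson correlation of log2(CPM + 1) among 9890 genes. The clusters share libraries and depth. Apoa1 was most like Ttr (r = 0.989), the thyroxine carrier, and then Apom (0.986) and Clic6 (0.983). Apom was most like Ttr (0.993), Apoa1 and Lgals2 (0.985). Apob was nearest to Ctsh (0.982), a lysosomal protease, Dpp4 (0.981) and Apoa1 (0.973), and Apoe to Apob (0.960), Dpp4 (0.958) and Ctsh (0.954).

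Apoa4 was nearest to Pla2g12b (0.971), F2 (0.970), the prothrombin gene, and 2210011C24Rik (0.961). Apoc1 was nearest to Slc9a3r1 (0.950), Wdr81 (0.948) and Rbm47 (0.938), and not to its neighbour. Apoa2 had the weakest nearest genes, Gstm1 (0.896), Igfbp1 (0.873) and Rap1gap (0.863). Over the 10 clusters with endoderm core genes alone, Apob and Apoe had r = 0.88 and Apoc1 and Apom 0.85, while Apoa2 with Apob gave -0.34. Apoa1 gave 0.76 with Apom and 0.42 with Apob there, below the 0.986 and 0.973 over all 22 clusters. Among single endoderm-like cells thinned to 5000 UMIs, Apoe and Apom gave a Spearman rho of 0.61 and 0.48 in DUX-pulsed libraries (712 and 339 cells) and 0.60 and 0.54 in controls (1536 and 1630 cells). Apoa2 with Apoa4 gave 0.30 and 0.16 in DUX-pulsed libraries and 0.18 and 0.11 in controls.

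The genes that act on apolipoproteins were taken as 6 lists with 124 genes, of which 114 were tested in the whole culture. Of these, 20 were higher and 24 lower in DUX-pulsed cultures (38.6% called, against 26.7% of all genes). In endoderm-like cells 10 were higher and 9 lower of 108 (17.6%, against 8.6% of all genes). Among 9 other apolipoprotein genes 1 was called in the whole culture: Apoc2, the activator of lipoprotein lipase, had 0.287 and 0.110 CPM in DUX-pulsed cultures and 0.913 and 1.23 CPM in controls (-2.33, adjusted p = 0.0197). The next by p was Apoc4, at 0.367 and 0.330 CPM against 0.126 and 0.146 CPM (1.36, adjusted p = 0.0593), and it was called higher in endoderm-like cells (2.09, adjusted p = 0.0463). The median log2 fold change of the 9 was -0.05, against -0.0021 over all genes.

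Of 24 genes for assembly and secretion of lipoproteins, 3 were higher and 5 lower in the whole culture (all genes: 15.6% higher, 11.1% lower). No set test was run on any list. Soat2, which makes cholesteryl esters for secreted particles, had 13.7 and 9.93 CPM in DUX-pulsed cultures and 50.6 and 55.8 CPM in controls (-2.17, adjusted p = 0.00259), and fell in endoderm-like cells too (-1.001, adjusted p = 0.0247). Fabp2, an intestinal fatty acid binding protein, had 16.03 and 14.5 CPM, against 44.4 and 49.3 CPM (-1.62, adjusted p = 0.00259). Chosen after its values were seen, Mttp, the transfer protein that loads lipid onto APOB, had 59.2 and 46.9 CPM, against 141 and 168 CPM (-1.54, adjusted p = 0.00397). In endoderm-like cells Mttp was at 119 and 110 CPM, against 173 and 187 CPM, and was not called (-0.66, adjusted p = 0.0512).

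Of 14 tested genes for remodelling and lipolysis, 5 were higher and 3 lower (all genes: 15.6% higher, 11.1% lower). Lpl, lipoprotein lipase, had 73.1 and 75.5 CPM in DUX-pulsed cultures and 16.2 and 15.999 CPM in controls (2.21, adjusted p = 0.00196), and rose in endoderm-like cells as well (1.22, adjusted p = 0.0342). Gpihbp1, its endothelial anchor, had 0.718 and 0.743 CPM, against 0.0105 and 0 CPM (adjusted p = 0.00305). Of 20 receptor and uptake genes 4 were higher and 4 lower (all genes: 15.6% higher, 11.1% lower). Stab1, a scavenger receptor, had 6.55 and 5.86 CPM, against 1.20 and 0.863 CPM (2.59, adjusted p = 0.00294).

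Of 24 cholesterol synthesis genes 1 was higher and 5 were lower (all genes: 15.6% higher, 11.1% lower, 26.7% either way). Dhcr7, an enzyme of a late step of the pathway, had 22.4 and 24.5 CPM in DUX-pulsed cultures and 50.6 and 43.8 CPM in controls (-1.01, adjusted p = 0.00702).

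Of 23 transcription factors known to act on apolipoprotein genes, 7 were higher and 6 lower (all genes: 15.6% higher, 11.1% lower). Cebpb had 62.9 and 59.1 CPM in DUX-pulsed cultures and 11.4 and 11.5 CPM in controls (2.41, adjusted p = 0.00196), and Nr2f1 had 13.5 and 18.3 CPM, against 2.83 and 3.12 CPM (2.41, adjusted p = 0.00262). Hnf4a, named after its values were seen, fell in the whole culture (16.1 and 12.7 CPM against 35.4 and 39.8, adjusted p = 0.00457). In endoderm-like cells, where it helped to choose the clusters, it was at 35.1 and 34.9 CPM against 42.0 and 43.5 CPM.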

How the data were processed

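Single-cell libraries were made with the 10x Genomics kit, per the labels' protocols, and Cell Ranger 2.2.0, STAR and build mm10 are named in the submitters' processing notes. The authors deposited UMI counts, whole numbers per gene and cell, in 1 combined table of 20284 genes and 10090 cells from 4 libraries. A cell was kept when it had 500 or more genes and a mitochondrial share no higher than 10% (8876 cells). They were clustered with scanpy 1.11.5 (2000 variable genes, 30 principal components, 15 neighbours, Leiden resolution 1), leaving out 130 genes (the members and lists). The doublet caller marked 37 cells (0.417%), too few to rely on, so removing the top 5% of scores was an alternative.

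Counts were summed per library and class and tested with edgeR 4.0.16 (quasi-likelihood, TMM, at least 10 counts in 2 libraries and 40 in all), on R 4.3.3 and checked on simulated data. Benjamini-Hochberg adjustment ran over all genes tested, with a threshold of 0.05. Alternatives were DESeq2 1.42.0, other filters, clusterings, thinning to 5000 UMIs and leaving out libraries. With 2 libraries per group, p-values measure the spread between these libraries. Poisson intervals (95%) and the limit of a count of 0 (3 counts) cover counting error only. The members and lists were chosen with earlier results of these data known. Among list genes, the 2 with the smallest p in the whole culture were named, except that some are not reported here, and others are marked as named after their values were seen.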

Additional observations from a re-analysis of the deposited data

Results flagged for a closer look

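The log2 fold change of Apoa1 was 2.22 higher, that is less negative, in endoderm-like than in other cells, and that of Apob was 1.68 higher. Both passed the interaction test (adjusted p = 0.0437 and 0.0227 by edgeR's quasi-likelihood test). Both calls were lost under the stricter cell filter and without the top 5% of doublet scores. The change of Apoa4 was 2.95 higher in cluster 5 than in cluster 6, and the interaction test gave an adjusted p of 0.0608. Every DUX-pulsed library was above every control in cluster 5 and below every control in cluster 6. The control values rest on 6 and 1 UMIs in cluster 5 and on 16 and 18 in cluster 6.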

How the results depend on the processing

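In the whole culture 5 members were called lower (5 to 6 when 1 library was left out) and 0 higher (0 to 1). In endoderm-like cells 2 were called lower, with 4 by DESeq2, with the stricter cell filter and with thinned cells, 5 without the parietal cluster, and 0 to 6 with 1 library left out. There 0 were called higher, with 1 in thinned cells, 1 without the parietal cluster and 0 to 2 with 1 library left out. In other cells 4 were called lower (0 with the stricter filter, 2 without the top doublet scores, 3 to 5 with 1 library left out) and 0 higher (0 to 1).

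In cluster 5, 3 were higher (1 to 6 with 1 library left out) and 0 lower (1 with no count filter, 0 to 1). In cluster 6, 1 was higher (0 in thinned cells, 0 to 1) and 2 lower (1 by DESeq2, 4 in thinned cells, 4 without top doublet scores, 1 to 4). In the difference between endoderm-like and other cells 2 were higher (0 with the stricter filter, 0 without top doublet scores, 2 to 3) and 0 lower (1 with the stricter filter, 1 without the parietal cluster, 0 to 1). In that between clusters 5 and 6, 0 were higher (6 with no filter, 4 in thinned cells, 1 to 5) and 0 lower (0 to 0). Genes called in the whole culture were 2522 higher (1148 with the stricter filter, 1380 to 2814) and 1784 lower (894, and 754 to 2158). List genes were 20 higher (11, and 13 to 24) and 24 lower (15, and 15 to 31).

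The replicate numbers of the labels form only 2 pairs and were not taken to pair the libraries, although deviations of same-numbered libraries correlated (r = 0.469 in the whole culture, 0.623 in endoderm-like cells and 0.487 in other cells). With the replicate block, members called were 1 higher and 4 lower in endoderm-like cells, 1 higher in other cells, 1 lower in cluster 5, 4 lower in cluster 6 and 4 higher in the cluster 5 and 6 difference. In the whole culture the block called 3803 genes higher and 3381 lower, and 39 list genes lower. It called 1801 higher and 1621 lower of 14525 genes in endoderm-like cells, and 2046 and 1836 of 14255 in other cells. In cluster 5 it called 999 and 740 of 10724, and in cluster 6 787 and 839 of 10692. In the difference of clusters 5 and 6 it called 370 and 155 of 11715. Apoa2's class difference with the block was 0.046.

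Signs turned in these cases, with the other end of the range over left-out libraries in brackets. Without DUX-pulsed replicate 1, Apoa2 was at -0.23 in the whole culture [1.62], Apoa4 at -0.78 in endoderm-like cells [1.18] and Apoe at -0.0014 in cluster 6 [0.53]. Without DUX-pulsed replicate 2, Apoa4 was at 0.31 in the whole culture [-1.97] and Apoa2 at 0.48 in the class difference [-0.93]. Without control replicate 2, Apoa1 and Apom were at -0.33 [1.30] and -0.39 [0.87] in cluster 5, Apoa1 and Apob at 0.37 [-1.04] and 0.0020 [-1.70] in cluster 6, Apoa2 at 0.015 in the class difference, and Apoa1 and Apom at -0.65 [2.38] and -0.31 [1.88] in the cluster difference. With the stricter filter Apoa4 was at -0.44 in endoderm-like cells and -0.15 in the class difference, which was -1.06 in thinned cells. Without the parietal cluster these were -1.40 and -0.63, and Apoe's class difference was 0.021. That of Apoe was 0.13 with all deposited cells and 0.059 without top doublet scores, and that of Apoa2 was 0.29 with the epiblast- and streak-led clusters included. Apom in cluster 5 was at -0.011 with all deposited cells. The cause was not tested. Clusters 5 and 6 gave no value in settings that left a library under 20 cells or had no match.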
